A study of Mus musculus with 12 samples.

Results

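The enzymes that break glucose down to pyruvate, the lactate dehydrogenases, the glucose and lactate transporters, and the kinases and subunits of the pyruvate dehydrogenase complex were followed together with the transcription factor Hif1a as 33 genes, chosen by symbol from the 46986 features of an RNA sequencing table of mouse haematopoietic stem cells (HSCs). Of the 33 genes, 28 reached at least 1 RPKM (reads divided by gene length in kilobases and by the mapped reads of the library) in at least 3 libraries and entered the tests across 8553 genes. Hk2 reached 1 RPKM in 1 library and Slc16a3 in 2 libraries, below that filter. Pfkfb3, Eno2 and Pklr stayed under 1 RPKM in all 12 libraries and count as not measured.

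Cells came from the bone marrow of C57BL/6 mice labelled 12-week-old, and total RNA of 2000 sorted HSCs went into each library. The ABX 5-FU group had ampicillin, neomycin, metronidazole and vancomycin in the drinking water over 4 to 6 weeks, then 5-fluorouracil (5-FU, an inhibitor of thymidylate synthesis that kills dividing marrow cells) at 200 mg/kg i.v., and was sampled on day 12. The Ctrl 5-FU group had the same 5-FU dose and day with no antibiotics. The ABX group had the antibiotics with no 5-FU, and the Ctrl group had neither. Each group had 3 libraries, and the number after a group name below only identifies a library. No label states if the 3 libraries of a group are from separate animals, so p-values measure the spread between libraries, which may be technical. How the cells were gated is not given in the sources used here, and these files hold no measure of gut bacteria.

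Glycolysis splits a glucose molecule into pyruvate in a fixed order of enzymes, with hexokinase, phosphofructokinase and pyruvate kinase as its controlled steps. Pyruvate is either reduced to lactate by lactate dehydrogenase or passed into mitochondria and oxidised by the pyruvate dehydrogenase complex, which pyruvate dehydrogenase kinases switch off by phosphorylation. Mouse HSCs at rest are known for relying on glycolysis, with Hif1a and pyruvate dehydrogenase kinases among the regulators described for that state.

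Summed RPKM over all features ranged from 149886 to 157119 in ABX 5-FU, 142127 to 152916 in Ctrl 5-FU, 165856 to 176924 in ABX and 165097 to 174252 in Ctrl. The 33 genes took up 0.307% to 0.375% of that sum. Ctrl 5-FU 1 stood apart, with Pearson correlations of 0.971 and 0.972 to Ctrl 5-FU 3 and Ctrl 5-FU 2, which correlated at 0.989. That library summed to 410 RPKM over 8 megakaryocyte and platelet markers, against 112 to 133 RPKM in the other Ctrl 5-FU libraries. The HSC markers Procr and Hlf were present in every library, at 15.9 to 31.6 RPKM and at 4.47 to 7.82 RPKM. Of the 10 HSC markers listed, 1 stayed under 1 RPKM in all libraries, Mecom, at 0.27 to 0.55 RPKM. Of 8 T, NK and B cell markers, 5 stayed under 1 RPKM in all libraries, Cd3e at the table's floor throughout. Nkg7 had 23.4 to 49.5 RPKM and Cd79b 8.56 to 15.0 RPKM. Klrb1c had 4.31 to 6.41 RPKM after 5-FU and 0.58 to 1.25 RPKM without it. The part of such cells in the values below was not tested. Libraries after 5-FU carry other i7 index sequences than libraries without it, so the index and 5-FU cannot be told apart.

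Levels spanned a wide range along the pathway. Per kilobase, Tpi1 was the most abundant of the 33 genes with a mean of 117 RPKM over the 12 libraries, followed by Aldoa with 101 RPKM and Ldha with 90.7 RPKM. Pkm, Pgam1, Gapdh and Eno1 averaged 38.4, 35.6, 34.7 and 29.9 RPKM. In contrast, 13 of the 28 genes tested averaged under 5 RPKM, among them the hexokinases Hk1 and Hk3 and both glucose transporters. The highest library of a gene exceeded its lowest by a median of 1.59-fold over the 28 genes, by 1.25-fold in Pdhb and by 4.34-fold in Eno3.

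These levels depend on how reads were divided between a gene and its processed copies. Among the features of the table, 100 were near-identical copies of 11 of the genes (at least 95% identity over at least 300 bases of transcript), and 94 of them are pseudogenes by the table's own biotype. The feature counted for Pfkm, Gm26513, overlaps Pfkm itself on the same strand and is not a separate copy. Gapdh had 86 copies, of which 7 averaged at least 1 RPKM. When the reads of the copies were added, Pgk1, which makes ATP from 1,3-bisphosphoglycerate, held only 3.81% of the summed reads, because Pgk1-rs7 on chromosome 12 was listed at a mean of 102 RPKM and matched all 1250 aligned coding bases with 0 mismatches. Eno1 held 15.2% of its sum, Gapdh 23.1%, Gpi1 25.9%, Pkm 36.6% and Pgam1 46.2%. Ldha held 85.0% and Tpi1 95.6%. With the copies added, Eno1 averaged 197 RPKM and Gapdh 151 RPKM, above Tpi1 at 123 RPKM, so the order of abundance given above turns with them. These sums assume the GENCODE M21 transcript lengths, since those behind the deposited RPKM are not stated.

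Of the 33 genes, 18 overlap another feature on the chromosome, and 5 of these features averaged at least 1 RPKM. They are Senp1 beside Pfkm, Pitrm1 beside Pfkp, Spsb2 beside Tpi1, Iffo1 beside Gapdh, and a processed pseudogene within Slc2a3. The strand setting of the counting is not stated, so reads of opposite strands may have been shared.

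**Figure D1:**
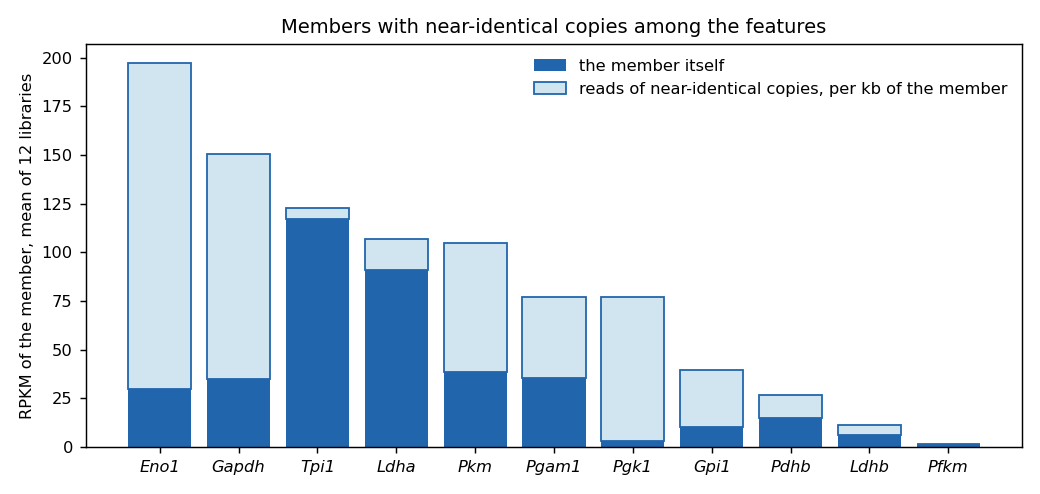
Mean RPKM of the 12 libraries for the 11 genes that have near-identical copies, with the gene itself in dark blue and the reads of its copies, expressed per kilobase of that gene, in light blue. Pgk1 held 3.81% of its bar and Eno1 15.2%, while Tpi1 held 95.6%. The feature added to the Pfkm bar, Gm26513, overlaps Pfkm itself and is not a separate copy.

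The stretches below show how little separates a gene from its most abundant copy. Each pair is the 90 coding bases with the most mismatches between the gene and the copy, from GENCODE M21 transcripts on mm10, 5′ to 3′, and capitals mark the mismatches. Enolase 1 and Gm4735, listed at 224 RPKM, had 5 mismatches over all 1302 coding bases, of which 2 lie here. Pyruvate kinase and Gm6560, listed at 102 RPKM, had 24 mismatches over 1591 aligned coding bases, of which 4 lie here. Lactate dehydrogenase B and Gm5514, listed at 20.2 RPKM, had 20 mismatches over 1002 coding bases, of which 5 lie here.
Eno1: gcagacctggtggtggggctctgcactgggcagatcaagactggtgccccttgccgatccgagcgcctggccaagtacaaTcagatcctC
Gm4735: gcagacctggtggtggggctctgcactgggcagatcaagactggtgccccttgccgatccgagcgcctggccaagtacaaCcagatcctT
Pkm: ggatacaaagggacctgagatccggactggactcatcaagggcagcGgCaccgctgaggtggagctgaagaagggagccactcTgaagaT
Gm6560: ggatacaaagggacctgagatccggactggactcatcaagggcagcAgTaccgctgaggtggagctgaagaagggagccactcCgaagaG
Ldhb: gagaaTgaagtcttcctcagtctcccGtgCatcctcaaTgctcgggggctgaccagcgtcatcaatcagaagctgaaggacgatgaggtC
Gm5514: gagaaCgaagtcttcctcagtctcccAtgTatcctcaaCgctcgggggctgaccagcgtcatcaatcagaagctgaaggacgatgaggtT
The share of reads a gene held differed little between groups for Pgam1, averaging 47.0% in ABX 5-FU, 45.6% in Ctrl 5-FU, 46.4% in ABX and 45.9% in Ctrl. It varied more for Gapdh, from 19.5% to 25.2% by library. The Gapdh share averaged 24.4% ± 1.08 in ABX 5-FU, 22.2% ± 2.52 in Ctrl 5-FU, 22.3% ± 1.52 in ABX and 23.5% ± 0.902 in Ctrl (SD). For Pfkm it averaged 93.4% in ABX 5-FU, 88.2% in Ctrl 5-FU, 89.4% in ABX and 87.0% in Ctrl. The feature added there, Gm26513, overlaps Pfkm on the same strand of chromosome 15. It matched 148 aligned coding bases with 0 mismatches, so the Pfkm share does not describe a separate copy.

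In Ctrl 5-FU against Ctrl, Gpi1, Tpi1, Gapdh, Pgam1 and Ldhb fell and Hif1a rose (limma on log2(RPKM + 1), Benjamini-Hochberg adjusted p under 0.05). In ABX 5-FU against ABX, Tpi1, Pgk1, Pgam1 and Ldhb fell, while Pdk2 and Bpgm rose. Each comparison thus called 6 of 28 genes (21.4%). Over all 8553 genes, 21.6% were called in Ctrl 5-FU against Ctrl (9.74% higher, 11.8% lower) and 30.2% in ABX 5-FU against ABX (13.7% higher, 16.5% lower), so the count for the 33 genes lay near the first background and below the second. The median log2 change of the 28 genes was 0.035 in ABX 5-FU against ABX, beside -0.014 over all genes, and -0.093 in Ctrl 5-FU against Ctrl, beside 0.0045 over all genes. In bulk libraries, fewer cells of a type and less RNA per cell cannot be told apart.

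**Figure D2:**
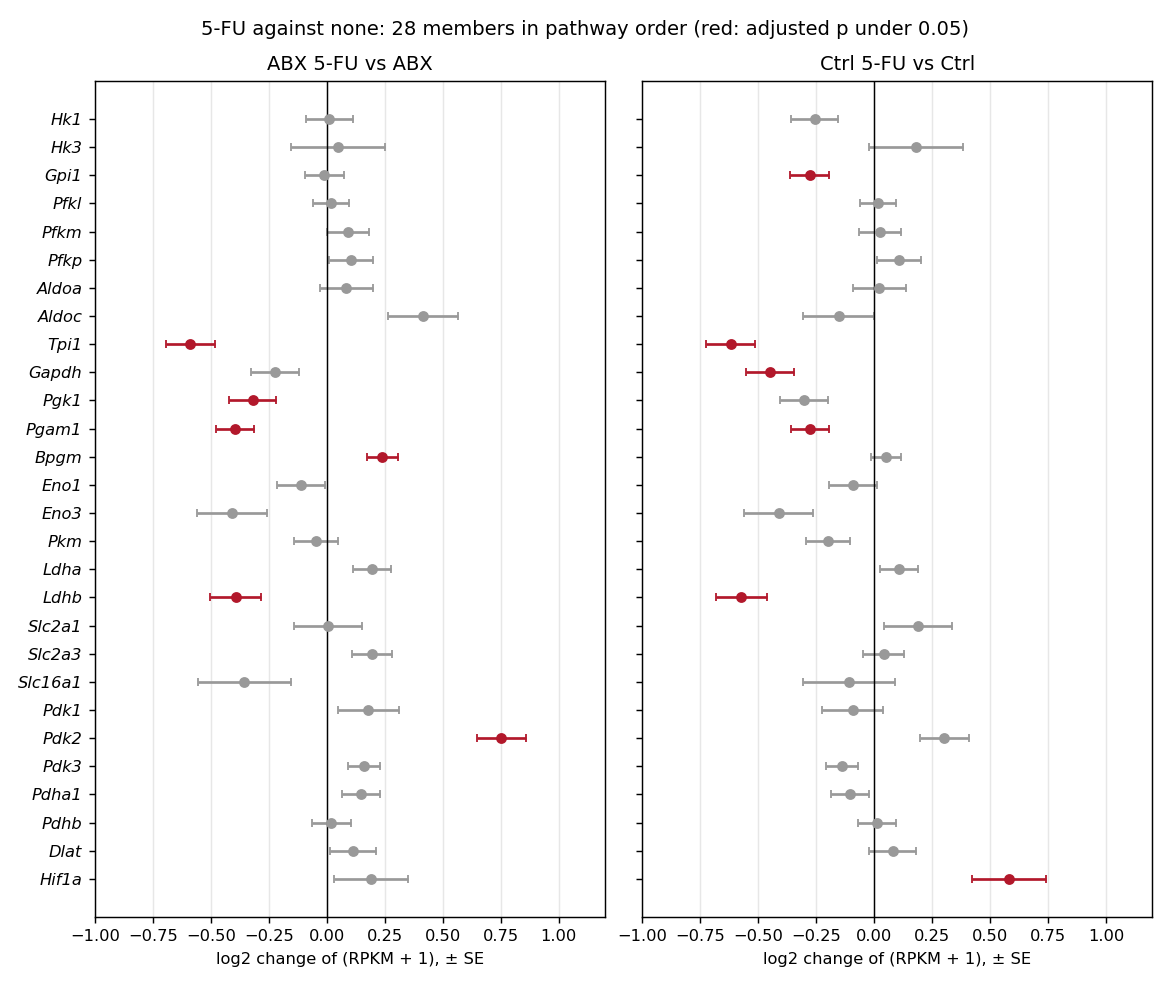
Log2 change of (RPKM + 1) with its SE for the 28 genes tested, in pathway order from hexokinase to Hif1a, in ABX 5-FU against ABX (left panel) and Ctrl 5-FU against Ctrl (right panel). Red points have an adjusted p under 0.05. Tpi1 lies near -0.6 in both panels, and Pdk2 lies at 0.75 on the left and 0.30 on the right.

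Transporters and hexokinases showed no called change. Slc2a3, a high-affinity glucose transporter, had 2.76, 3.14 and 3.14 RPKM in ABX 5-FU, 2.80, 3.11 and 3.62 RPKM in Ctrl 5-FU, 2.49, 2.29 and 2.76 RPKM in ABX and 2.87, 3.01 and 3.27 RPKM in Ctrl. All ABX 5-FU libraries lay above all ABX libraries by a margin that did not pass the test (log2 change 0.19 ± 0.087 SE, adjusted p = 0.113). A processed pseudogene lying within Slc2a3 on the same strand averaged 14.8 RPKM, and whether reads were shared between them was not tested. Slc2a1, the other glucose transporter, ranged from 1.96 to 3.62 RPKM, with its highest value in Ctrl 5-FU 1.

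The proton-linked lactate transporter Slc16a1 had 5.64, 4.47 and 4.49 RPKM in ABX 5-FU, 7.57, 4.09 and 4.02 RPKM in Ctrl 5-FU, 7.55, 6.71 and 5.33 RPKM in ABX and 6.63, 4.64 and 5.38 RPKM in Ctrl. Its groups overlapped in every comparison. Slc16a3, the transporter tied to lactate export in glycolytic cells, had 2.27, 0.73 and 0.86 RPKM in ABX 5-FU, 2.93, 0.57 and 0.71 RPKM in Ctrl 5-FU, 0.66, 0.70 and 0.65 RPKM in ABX and 0.80, 0.51 and 0.80 RPKM in Ctrl. Its 2 high values belong to ABX 5-FU 1 and Ctrl 5-FU 1, which share an i7 index, and the other 10 libraries stayed under 0.9 RPKM. Ctrl 5-FU 1 also held the highest Slc16a1, Slc2a1, Hif1a, Eno1, Aldoa, Ldha, Pfkp and Dlat values of all libraries. It held the lowest Hk2, Gpi1, Gapdh, Eno3, Ldhb, Pdk1 and Pdk3 values. Its megakaryocyte marker sum was 410 RPKM, and the part of that in these values was not tested.

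Hexokinase 1, which phosphorylates glucose at the outer mitochondrial membrane, had 3.86, 3.90 and 3.66 RPKM in ABX 5-FU, 3.94, 3.64 and 4.03 RPKM in Ctrl 5-FU, 3.54, 3.31 and 4.54 RPKM in ABX and 4.88, 5.40 and 4.21 RPKM in Ctrl. The Ctrl 5-FU libraries lay below all Ctrl libraries, with a log2 change of -0.26 ± 0.10 (SE) that did not pass the test (adjusted p = 0.0918). Hk3, the hexokinase of myeloid cells, had 2.52, 3.82 and 4.49 RPKM in Ctrl 5-FU, against 1.87, 3.08 and 4.46 RPKM in Ctrl. Mature neutrophil and monocyte markers summed to 136, 221 and 377 RPKM in those Ctrl 5-FU libraries and to 127, 140.0 and 136 RPKM in those Ctrl libraries, and their part in the Hk3 values was not tested. Hk2, the insulin-responsive hexokinase, made up 13.3% ± 1.21 of summed hexokinase RPKM in ABX 5-FU and 10.4% ± 1.02 in ABX, against 7.01% ± 0.212 in Ctrl 5-FU and 6.72% ± 0.915 in Ctrl (SD, n = 3 each). At 0.92 to 1.12 RPKM in ABX 5-FU and 0.47 to 0.64 RPKM in Ctrl 5-FU, Hk2 was below the filter. With no filter its log2 change in ABX 5-FU against Ctrl 5-FU was 0.35 ± 0.065 (SE), with an adjusted p of 0.139 in limma.

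Phosphoglucose isomerase, Gpi1 (chr7:34201330-34230336, minus strand), which turns glucose 6-phosphate into fructose 6-phosphate, had 10.3, 9.48 and 9.34 RPKM in ABX 5-FU, 8.71, 9.76 and 10.6 RPKM in Ctrl 5-FU, 9.17, 9.52 and 10.7 RPKM in ABX and 11.6, 11.6 and 12.6 RPKM in Ctrl. All 3 Ctrl libraries lay above all 9 libraries of the other groups. Gpi1 fell in Ctrl 5-FU against Ctrl (log2 change -0.28 ± 0.084 SE, adjusted p = 0.0364) and not in ABX 5-FU against ABX (-0.012 ± 0.084, adjusted p = 0.934). The difference between those effects was 0.27 ± 0.12 (unadjusted p = 0.0457 and adjusted p = 0.598 in limma). The call in Ctrl 5-FU against Ctrl was lost without ABX 5-FU 2, ABX 5-FU 3, Ctrl 5-FU 1, Ctrl 5-FU 2, Ctrl 1, Ctrl 2 or Ctrl 3 in turn, at adjusted p values between 0.0515 and 0.125.

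Phosphofructokinase, the committed step, was mostly the liver-type isoform Pfkl at this level, with 77.1% to 83.7% of the summed RPKM of Pfkl, Pfkm and Pfkp in each library. Pfkl had 12.9, 10.6 and 11.3 RPKM in ABX 5-FU, 14.2, 14.0 and 13.6 RPKM in Ctrl 5-FU, 11.1, 11.4 and 11.8 RPKM in ABX and 14.3, 12.8 and 14.2 RPKM in Ctrl. All libraries with antibiotics except ABX 5-FU 1 lay below 12 RPKM, and all without lay above it. The log2 change was -0.25 ± 0.078 (SE) in ABX 5-FU against Ctrl 5-FU (adjusted p = 0.165) and -0.25 ± 0.078 in ABX against Ctrl (adjusted p = 0.167), neither past the test.

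Aldolase A, which cleaves fructose 1,6-bisphosphate, had 104, 86.4 and 90.6 RPKM in ABX 5-FU, 118, 117 and 101 RPKM in Ctrl 5-FU, 85.6, 76.7 and 104 RPKM in ABX and 106, 111 and 113 RPKM in Ctrl. Its log2 change after 5-FU was 0.085 ± 0.11 (SE, adjusted p = 0.601) in ABX 5-FU against ABX and 0.023 ± 0.11 (adjusted p = 0.903) in Ctrl 5-FU against Ctrl. Aldoc, the brain-type aldolase, ranged from 6.06 to 12.3 RPKM and had a log2 change of 0.41 ± 0.15 in ABX 5-FU against ABX (adjusted p = 0.0591).

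Triosephosphate isomerase, Tpi1 (chr6:124810586-124814296, minus strand), which interconverts the triose phosphates that aldolase makes, had 99.4, 80.7 and 90.5 RPKM in ABX 5-FU and 103, 95.8 and 86.7 RPKM in Ctrl 5-FU, against 127, 139.5 and 141 RPKM in ABX and 145, 130.4 and 166 RPKM in Ctrl. All 6 libraries after 5-FU lay below all 6 libraries without it. Tpi1 fell in ABX 5-FU against ABX (log2 change -0.59 ± 0.11 SE, adjusted p = 0.0024) and in Ctrl 5-FU against Ctrl (-0.62 ± 0.11, adjusted p = 0.00337), and stayed called in every alternative run. The difference between the effects was 0.031 ± 0.15 (adjusted p = 0.966).

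Since aldolase A did not fall with Tpi1, the ratio of Aldoa to Tpi1 in RPKM averaged 1.04 ± 0.036 in ABX 5-FU and 1.18 ± 0.0391 in Ctrl 5-FU, against 0.654 ± 0.0958 in ABX and 0.754 ± 0.0894 in Ctrl (SD, n = 3 each). This ratio does not depend on the total of a library. An exact permutation test of 3 against 3 cannot give a p below 0.1, so the ratios and shares are described by their ranges.

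**Figure D3:**
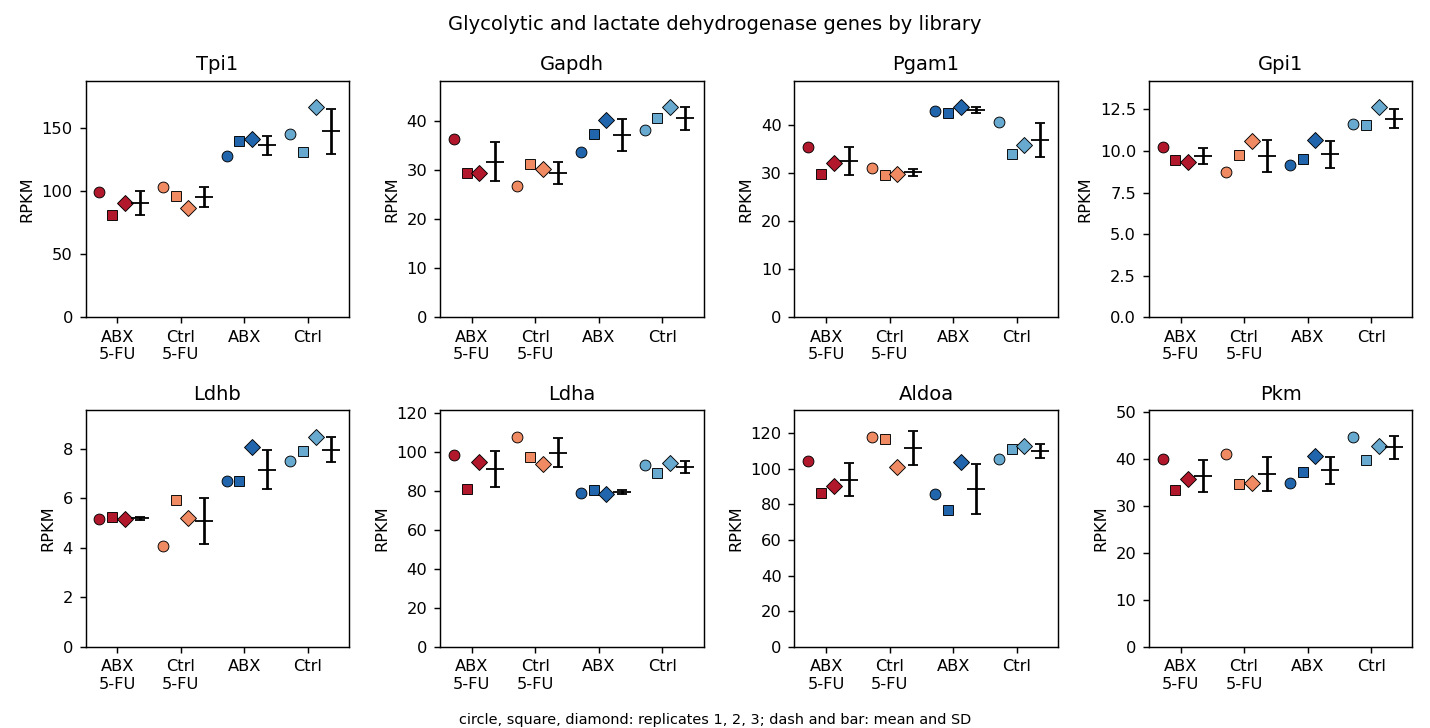
RPKM of 8 glycolytic and lactate dehydrogenase genes in each of the 12 libraries, by group, with the mean and SD of 3 libraries beside the points. Tpi1 and Ldhb lie lower in all libraries after 5-FU than in all libraries without it, while Ldha and Aldoa overlap between Ctrl 5-FU and Ctrl.

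Glyceraldehyde 3-phosphate dehydrogenase, Gapdh (chr6:125161715-125166467, minus strand), a gene often used as a loading reference, lies 347.4 kb from Tpi1. Gapdh had 36.3, 29.5 and 29.4 RPKM in ABX 5-FU and 26.8, 31.3 and 30.3 RPKM in Ctrl 5-FU, against 33.8, 37.3 and 40.3 RPKM in ABX and 38.1, 40.8 and 42.9 RPKM in Ctrl. It fell in Ctrl 5-FU against Ctrl (log2 change -0.45 ± 0.10 SE, adjusted p = 0.0113). With antibiotics the groups overlapped through ABX 5-FU 1 and the test was not passed (-0.22 ± 0.10, adjusted p = 0.114). Without ABX 5-FU 1, or with the reads of its copies added, Gapdh was called lower there too (-0.32 without that library).

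Pgk1 (chrX:106187100-106203699, plus strand) had 2.89, 2.31 and 2.53 RPKM in ABX 5-FU and 3.03, 2.21 and 2.12 RPKM in Ctrl 5-FU, against 3.44, 3.63 and 3.31 RPKM in ABX and 3.50, 3.01 and 3.20 RPKM in Ctrl. It fell in ABX 5-FU against ABX (log2 change -0.32 ± 0.10 SE, adjusted p = 0.0343), a call lost without ABX 5-FU 2, ABX 5-FU 3, ABX 1, ABX 2 or ABX 3 in turn (adjusted p 0.0504 to 0.127). In Ctrl 5-FU against Ctrl it missed the threshold (-0.30 ± 0.10, adjusted p = 0.0535), and it was called lower there once the reads of Pgk1-rs7 and Gm5537 were added. With those copies it measured 69.2 ± 7.96 RPKM in ABX 5-FU and 63.6 ± 10.3 RPKM in Ctrl 5-FU, against 87.3 ± 2.13 RPKM in ABX and 88.0 ± 7.54 RPKM in Ctrl (SD, n = 3 each).

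Phosphoglycerate mutase, Pgam1 (chr19:41911871-41918664, plus strand), had 35.5, 29.8 and 32.1 RPKM in ABX 5-FU and 31.0, 29.7 and 29.8 RPKM in Ctrl 5-FU, against 43.0, 42.4 and 43.7 RPKM in ABX and 40.7, 34.0 and 35.9 RPKM in Ctrl. Neither pair of groups overlapped. It fell in ABX 5-FU against ABX (log2 change -0.40 ± 0.082 SE, adjusted p = 0.00492), in every alternative run. In Ctrl 5-FU against Ctrl it fell as well (-0.28 ± 0.082, adjusted p = 0.0337), a call lost without ABX 5-FU 3, Ctrl 5-FU 2, Ctrl 5-FU 3, Ctrl 1 or Ctrl 3 in turn (adjusted p 0.0511 to 0.111).

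Bpgm (chr6:34476207-34505613, plus strand) makes 2,3-bisphosphoglycerate, which lowers the oxygen affinity of haemoglobin in red cells. It had 1.62, 1.59 and 1.48 RPKM in ABX 5-FU, 1.40, 1.44 and 1.68 RPKM in Ctrl 5-FU, 1.17, 1.17 and 1.16 RPKM in ABX and 1.45, 1.47 and 1.34 RPKM in Ctrl. Bpgm rose in ABX 5-FU against ABX (log2 change 0.24 ± 0.066 SE, adjusted p = 0.0182), a call lost without ABX 5-FU 1, ABX 5-FU 2 or ABX 2 in turn (adjusted p 0.0526 to 0.0623). Erythroid markers summed to 255 to 592 RPKM in ABX 5-FU and 168 to 178 RPKM in ABX, with 3 of 7 tested markers called higher and 1 lower, and their part in the Bpgm result was not tested. In Ctrl 5-FU against Ctrl, where Bpgm was not called (0.050 ± 0.066, adjusted p = 0.613), those sums overlapped, with 205 to 312 RPKM and 152 to 420 RPKM.

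The enzymes that end glycolysis were not called. Eno1 had 30.4, 25.6 and 27.4 RPKM in ABX 5-FU, 35.3, 28.3 and 26.4 RPKM in Ctrl 5-FU, 28.6, 29.9 and 31.7 RPKM in ABX and 30.8, 31.6 and 33.2 RPKM in Ctrl. Pyruvate kinase, Pkm, had 40.1, 33.3 and 35.7 RPKM in ABX 5-FU, 41.1, 34.8 and 35.0 RPKM in Ctrl 5-FU, 34.9, 37.3 and 40.6 RPKM in ABX and 44.8, 39.9 and 42.8 RPKM in Ctrl. Both genes overlapped between groups with and without 5-FU. Eno3, the muscle enolase, lay lower in all libraries after 5-FU than in the matching groups without it, at 0.44 to 0.65 RPKM in ABX 5-FU against 0.77 to 1.61 RPKM in ABX, and 0.37 to 0.87 RPKM in Ctrl 5-FU against 1.04 to 1.35 RPKM in Ctrl. Eno3 reached 1 RPKM only in ABX 2 and the Ctrl libraries, so it passed the filter only through libraries without 5-FU. That favours lower values after 5-FU, and its adjusted p values in limma, 0.0575 and 0.0687, are not independent of the filter. Eno2, the neuronal enolase, went the other way below the limit of measurement, at 0.89, 0.88 and 0.86 RPKM in ABX 5-FU and 0.44, 0.76 and 0.99 RPKM in Ctrl 5-FU, against 0.31, 0.29 and 0.34 RPKM in ABX and 0.39, 0.26 and 0.54 RPKM in Ctrl. Tested with no filter, Eno2 was called higher in ABX 5-FU against ABX (0.51 ± 0.11 SE, adjusted p = 0.0223) and not in Ctrl 5-FU against Ctrl (0.30 ± 0.11, adjusted p = 0.168). The same unfiltered limma run called Pklr lower in Ctrl 5-FU against Ctrl (-0.073 ± 0.015 SE, adjusted p = 0.0288). No library held more than 0.073 RPKM of Pklr, so calls of this run on genes not measured are not read as changes.

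Of the lactate dehydrogenase subunits, Ldhb fell after 5-FU and Ldha was not called. Ldhb (chr6:142490249-142507957, minus strand) encodes the subunit found mainly in oxidative tissues, and had 5.16, 5.26 and 5.17 RPKM in ABX 5-FU and 4.08, 5.92 and 5.23 RPKM in Ctrl 5-FU, against 6.70, 6.72 and 8.06 RPKM in ABX and 7.51, 7.92 and 8.49 RPKM in Ctrl. All 6 libraries after 5-FU lay under 6 RPKM and all 6 without it above 6.6 RPKM. Ldhb fell in Ctrl 5-FU against Ctrl (log2 change -0.57 ± 0.11 SE, adjusted p = 0.00524) in every alternative run. In ABX 5-FU against ABX it fell as well (-0.39 ± 0.11, adjusted p = 0.0191), a call lost without ABX 5-FU 1, ABX 5-FU 2, ABX 5-FU 3 or ABX 3 in turn (adjusted p 0.0503 to 0.0635).

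Ldha (chr7:46841475-46855627, plus strand), the subunit that favours lactate formation, had 98.4, 81.1 and 94.7 RPKM in ABX 5-FU, 108, 97.3 and 93.8 RPKM in Ctrl 5-FU, 79.2, 80.8 and 78.4 RPKM in ABX and 93.5, 89.1 and 94.5 RPKM in Ctrl. The ABX libraries were the lowest group and lay under every ABX 5-FU library. Ldha was not called in ABX 5-FU against ABX (log2 change 0.19 ± 0.082 SE, adjusted p = 0.0925) or Ctrl 5-FU against Ctrl (0.11 ± 0.082, adjusted p = 0.372). Without ABX 5-FU 2 it was called higher in ABX 5-FU against ABX, at 0.28.

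As a share of Ldha plus Ldhb, Ldhb made up 5.41% ± 0.590 in ABX 5-FU and 4.89% ± 1.10 in Ctrl 5-FU, against 8.27% ± 0.915 in ABX and 7.95% ± 0.448 in Ctrl (SD, n = 3 each). No library after 5-FU reached the lowest library without it. With the reads of the copies added, the shares were 7.92% in ABX 5-FU and 7.15% in Ctrl 5-FU, against 11.5% in ABX and 11.5% in Ctrl. The ratio of Ldha to Tpi1 averaged 1.01 ± 0.0291 in ABX 5-FU and 1.05 ± 0.0329 in Ctrl 5-FU, against 0.586 ± 0.0333 in ABX and 0.632 ± 0.0577 in Ctrl.

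**Figure D4:**
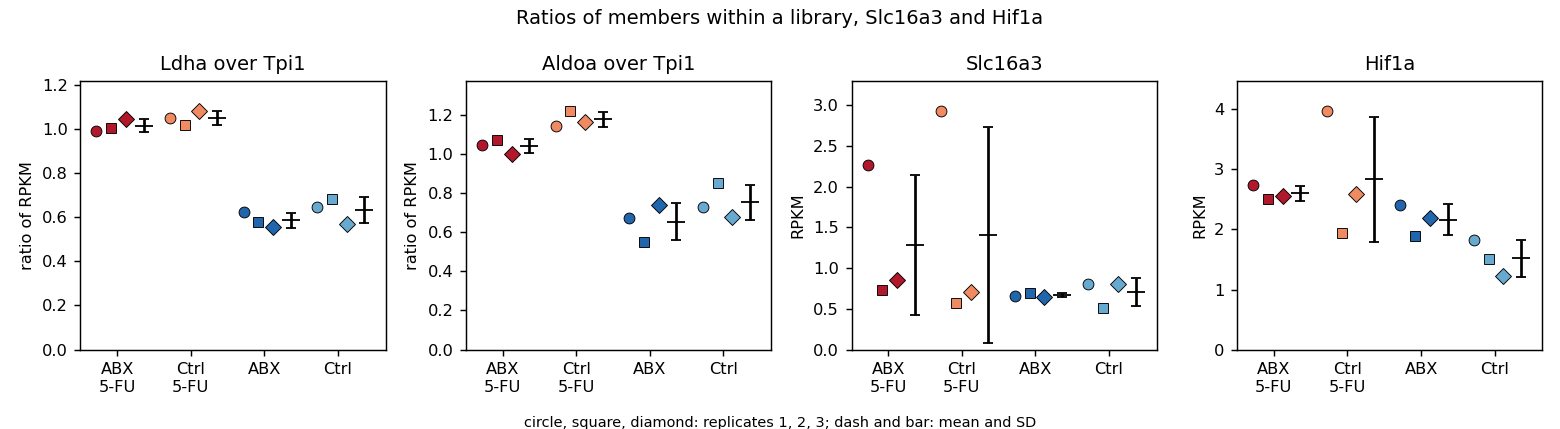
Ratio of Ldha to Tpi1 and of Aldoa to Tpi1 within each library, and RPKM of Slc16a3 and Hif1a, by group, with the mean and SD of 3 libraries beside the points. Both ratios lie near 1 in the 6 libraries after 5-FU and below 0.86 in the 6 without it, and the 2 high Slc16a3 values are ABX 5-FU 1 and Ctrl 5-FU 1.

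Genes of dividing cells were lower in the same comparisons as these enzymes. The 10 cycling markers summed to 81.8 to 94.4 RPKM in ABX 5-FU against 165 to 218 RPKM in ABX, with 9 of 10 called lower, and to 75.7 to 113.6 RPKM in Ctrl 5-FU against 144 to 200.1 RPKM in Ctrl, with 8 of 10 called lower. HSC markers moved the other way, summing to 196 to 220.4 RPKM in ABX 5-FU against 147 to 184 RPKM in ABX, and to 213 to 230.2 RPKM in Ctrl 5-FU against 168 to 186 RPKM in Ctrl. The part of these differences in the fall of Tpi1, Gapdh, Pgam1, Gpi1, Pgk1 and Ldhb was not tested.

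As a sum, Pdk1, Pdk2 and Pdk3 lay higher in ABX 5-FU than in the other groups, which is described by range only. With all 12 libraries, none of these kinases was called in ABX 5-FU against Ctrl 5-FU or in the interaction. Pdk4, at 0.16 to 0.96 RPKM, was not part of the sum. Pdk2 (chr11:95026258-95041354, minus strand), a broadly expressed kinase of the complex, had 6.51, 7.34 and 5.92 RPKM in ABX 5-FU and 4.94, 6.08 and 6.06 RPKM in Ctrl 5-FU, against 3.29, 3.14 and 4.10 RPKM in ABX and 4.50, 4.62 and 4.13 RPKM in Ctrl. All libraries after 5-FU lay above all libraries without it. Pdk2 rose in ABX 5-FU against ABX (log2 change 0.75 ± 0.11 SE, adjusted p = 0.00072), in every alternative run. In Ctrl 5-FU against Ctrl the change was 0.30 ± 0.11 (adjusted p = 0.0602), which was past the threshold without Ctrl 5-FU 1 or without ABX 3. The effects differed by 0.45 ± 0.15 between mice with and without antibiotics (unadjusted p = 0.011 and adjusted p = 0.506 in limma) and did not pass the test over all genes.

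Pdk1, the kinase induced through Hif1a in low oxygen, had 5.04, 4.60 and 5.66 RPKM in ABX 5-FU, 2.54, 2.97 and 4.07 RPKM in Ctrl 5-FU, 5.03, 3.83 and 4.34 RPKM in ABX and 3.48, 3.76 and 3.05 RPKM in Ctrl. In both pairs all libraries with antibiotics lay above all without. The log2 change was 0.55 ± 0.13 (SE) in ABX 5-FU against Ctrl 5-FU (adjusted p = 0.0992) and 0.28 ± 0.13 in ABX against Ctrl (adjusted p = 0.294), neither past the test. Without Ctrl 5-FU 3, Pdk1 was called higher in ABX 5-FU against Ctrl 5-FU, at 0.70 ± 0.12 (adjusted p = 0.0426). Pdk3 had 2.61, 2.40 and 2.51 RPKM in ABX 5-FU, 1.83, 2.07 and 1.94 RPKM in Ctrl 5-FU, 2.26, 2.01 and 2.14 RPKM in ABX and 2.46, 2.10 and 2.18 RPKM in Ctrl. Its ABX 5-FU libraries lay above all ABX libraries and its Ctrl 5-FU libraries below all Ctrl libraries, with log2 changes of 0.16 ± 0.068 (adjusted p = 0.0948) and -0.14 ± 0.068 (adjusted p = 0.16).

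Summed Pdk1, Pdk2 and Pdk3 averaged 14.2 ± 0.134 RPKM in ABX 5-FU, 10.8 ± 1.40 RPKM in Ctrl 5-FU, 10.05 ± 0.920 RPKM in ABX and 10.1 ± 0.631 RPKM in Ctrl (SD, n = 3 each). No library outside ABX 5-FU exceeded 12.1 RPKM, and no ABX 5-FU library was below 14.0 RPKM. Pdk2 made up 46.4% ± 4.59 of that sum in ABX 5-FU and 52.7% ± 2.29 in Ctrl 5-FU, against 34.9% ± 3.86 in ABX and 43.7% ± 0.588 in Ctrl.

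**Figure D5:**
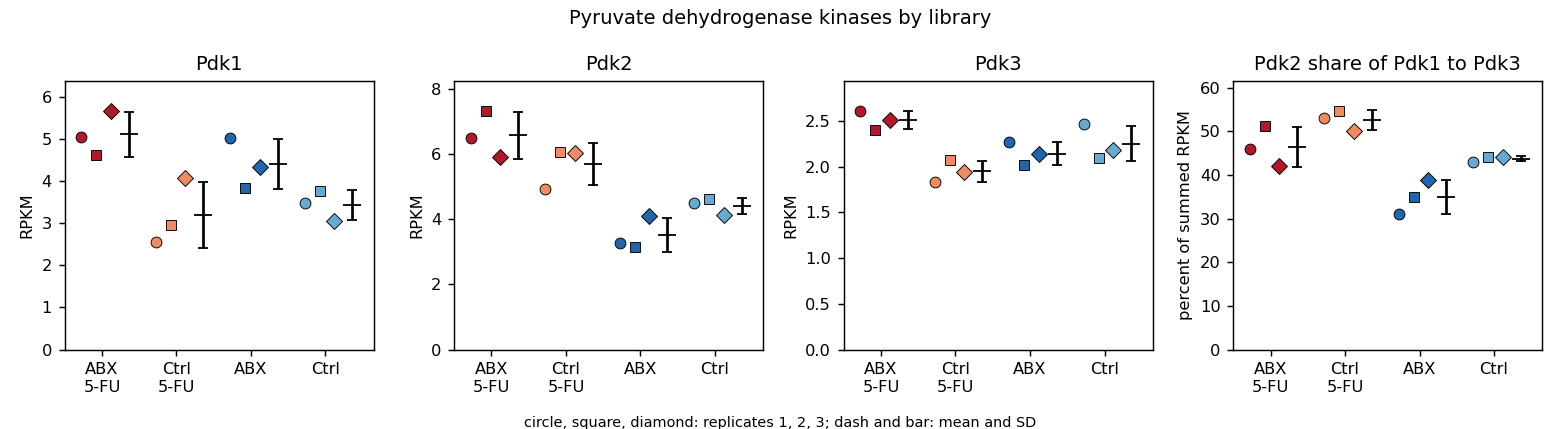
RPKM of Pdk1, Pdk2 and Pdk3 and the share of Pdk2 in their sum, for each of the 12 libraries by group, with the mean and SD of 3 libraries beside the points. Pdk2 lies above 4.9 RPKM in all libraries after 5-FU and at or under 4.62 RPKM in all libraries without it.

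The subunits of the complex that these kinases act on did not change past the test in any comparison. Pdhb, the E1 beta subunit, had 15.5, 14.2 and 16.8 RPKM in ABX 5-FU, 16.1, 14.6 and 13.9 RPKM in Ctrl 5-FU, 15.1, 15.2 and 15.4 RPKM in ABX and 15.2, 13.4 and 15.5 RPKM in Ctrl. Pdha1, the E1 alpha subunit that carries the phosphorylated sites, ranged from 9.15 to 11.9 RPKM, and Dlat, the E2 acetyltransferase, from 2.18 to 3.54 RPKM. Summed over the 3 subunits, the groups averaged 29.2 ± 2.11 RPKM in ABX 5-FU, 27.5 ± 1.42 RPKM in Ctrl 5-FU, 27.5 ± 0.965 RPKM in ABX and 27.9 ± 1.38 RPKM in Ctrl. Kinases over subunits then gave a ratio of 0.488 ± 0.0414 in ABX 5-FU, 0.397 ± 0.0708 in Ctrl 5-FU, 0.365 ± 0.0236 in ABX and 0.363 ± 0.0384 in Ctrl. The ABX 5-FU and Ctrl 5-FU libraries overlapped, with Ctrl 5-FU 3 at 0.465 and ABX 5-FU 3 at 0.459.

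Hif1a (chr12:73901375-73947530, plus strand), the oxygen-regulated transcription factor of many glycolytic genes, had 2.74, 2.51 and 2.55 RPKM in ABX 5-FU and 3.98, 1.94 and 2.59 RPKM in Ctrl 5-FU, against 2.41, 1.90 and 2.18 RPKM in ABX and 1.83, 1.51 and 1.22 RPKM in Ctrl. It rose in Ctrl 5-FU against Ctrl (log2 change 0.58 ± 0.16 SE, adjusted p = 0.0252). That call was lost without Ctrl 5-FU 3, Ctrl 2 or Ctrl 3 in turn (adjusted p 0.055 to 0.0981), and without Ctrl 5-FU 1 and ABX 5-FU 1 together (0.38, adjusted p = 0.0554). The change was 0.19 ± 0.16 (adjusted p = 0.396) in ABX 5-FU against ABX and 0.33 ± 0.16 (adjusted p = 0.301) in ABX against Ctrl, neither past the test.

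The core letters of the hypoxia response element, ACGTG read on both strands, occurred in the promoters of 19 of the 32 genes matched in a RefSeq promoter table of build GRCm38.p6 (59.4%), against 30.8% of the tested genes that matched and 21.8% of all genes there. A promoter here is the 250 bases before and 50 bases after an annotated start, and a gene with several starts counts when any of them holds the letters. The letters CACGTG, an E-box, hold the core on both strands, so each E-box counts as 2 matches. E-boxes were found in 18.75% of the 32 genes, against 12.7% of the tested genes. Such a match is a description of letters and not of binding. Of the 2 promoters listed for Ldha, 1 held 5 matches, including those of 2 E-boxes, and the other (chr7:46846832-46847131) held 0. Of the 2 listed for Pdk2, 1 held 2 matches, both in 1 E-box, and the other (chr11:95040826-95041125) held 0. The Tpi1 promoter held 0. The promoter with matches of each pair and that of Tpi1 are shown because Ldha held the most matches, Pdk2 rose and Tpi1 fell. They are chr7:46845554-46845853 (plus strand) for Ldha, chr11:95041322-95041621 (minus strand) for Pdk2 and chr6:124814109-124814408 (minus strand) for Tpi1, written 5′ to 3′ on the strand of the gene with the matches in capitals.
Ldha: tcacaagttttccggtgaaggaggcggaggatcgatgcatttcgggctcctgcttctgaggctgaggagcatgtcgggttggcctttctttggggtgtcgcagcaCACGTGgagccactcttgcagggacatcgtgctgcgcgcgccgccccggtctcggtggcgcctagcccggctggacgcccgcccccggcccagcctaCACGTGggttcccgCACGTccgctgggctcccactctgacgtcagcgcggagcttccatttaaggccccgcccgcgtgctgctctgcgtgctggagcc
Pdk2: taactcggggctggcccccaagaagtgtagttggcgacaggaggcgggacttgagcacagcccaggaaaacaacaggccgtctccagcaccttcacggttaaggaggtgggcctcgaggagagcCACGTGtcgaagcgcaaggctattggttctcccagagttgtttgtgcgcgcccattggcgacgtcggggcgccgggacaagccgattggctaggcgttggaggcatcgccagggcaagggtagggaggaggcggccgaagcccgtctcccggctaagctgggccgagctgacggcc
Tpi1: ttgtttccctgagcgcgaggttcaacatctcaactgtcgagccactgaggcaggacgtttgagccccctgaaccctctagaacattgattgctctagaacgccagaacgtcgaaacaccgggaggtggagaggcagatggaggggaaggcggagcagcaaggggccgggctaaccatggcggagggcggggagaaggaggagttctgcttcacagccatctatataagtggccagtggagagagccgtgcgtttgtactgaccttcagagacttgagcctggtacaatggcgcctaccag

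None of the 28 genes was called in ABX against Ctrl or in ABX 5-FU against Ctrl 5-FU. Over all 8553 genes, 0.0702% were called in ABX against Ctrl and 0.117% in ABX 5-FU against Ctrl 5-FU (0.0702% higher and 0.0468% lower). At an unadjusted p under 0.05 in limma, 9 of the 28 genes were past that threshold in ABX against Ctrl (32.1%, against 17.8% of all genes) and 4 in ABX 5-FU against Ctrl 5-FU (14.3%, against 14.9% of all genes). In ABX against Ctrl, 21 of the 28 genes had negative changes, with a median log2 change of -0.11 beside 0.020 over all genes. Groups did not overlap for 11 of the 28 genes (39.3%, against 22.1% of all genes, 13% higher and 9.06% lower). Gpi1, Pfkl, Aldoa, Bpgm, Ldha, Slc2a3 and Pdk2 were lower in ABX, and Pgam1, Slc2a1, Pdk1 and Hif1a were higher. In ABX 5-FU against Ctrl 5-FU the median change was -0.0074 beside 0.014, and 4 of 28 genes did not overlap (3 higher and 1 lower, 14.3%, against 21.2% of all genes, 11.5% higher and 9.67% lower). Estimated depth also differed without overlap at steady state, at 28.85 to 37.25 M reads in ABX and 43.8 to 53.95 M reads in Ctrl, and its part in these values was not tested.

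The effect of 5-FU with antibiotics minus that without was called for none of the 28 genes and for 0.0117% of all genes. At an unadjusted p under 0.05 in limma, 5 of the 28 genes had such a difference (17.9%, against 8.3% of all genes), namely Gpi1, Aldoc, Pdk2, Pdk3 and Pdha1. Their differences were all positive, at 0.27, 0.57, 0.45, 0.30 and 0.25, and their adjusted p values ranged from 0.505 to 0.598.

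By non-overlap, 11 of the 28 genes parted in ABX 5-FU against ABX (6 higher and 5 lower, 39.3%, against 49.9% of all genes with 23.1% higher and 26.8% lower) and 10 in Ctrl 5-FU against Ctrl (2 higher and 8 lower, 35.7%, against 37% of all genes with 18.6% higher and 18.3% lower). Because RPKM sums were lower after 5-FU, the direction of small changes depended on scaling. With each library rescaled to TPM, the median of all genes moved to 0.15 in ABX 5-FU against ABX and 0.18 in Ctrl 5-FU against Ctrl, and called genes were then higher in 74.1% and 81.1% of cases, against 45.4% and 45.1% with RPKM. On that scale, Aldoc, Bpgm, Ldha, Pdha1, Pdk2, Pdk3 and Slc2a3 were called higher and Pgam1 and Tpi1 lower in ABX 5-FU against ABX. In Ctrl 5-FU against Ctrl, Hif1a, Ldha and Pdk2 were called higher and Gapdh, Ldhb and Tpi1 lower. Fitting only the Ctrl 5-FU and Ctrl libraries, or applying no filter, ended the calls of Gpi1, Pgam1 and Hif1a in that comparison. Applying no filter ended the calls of Pgk1 and Ldhb in ABX 5-FU against ABX.

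Of 35 tested genes of neighbouring pathways, 10 were called in ABX 5-FU against ABX (28.6%, against 30.2% of all genes) and 6 in Ctrl 5-FU against Ctrl (17.1%, against 21.6%). Of 10 tested genes of other glucose metabolism, 2 were called in each 5-FU comparison, with median log2 changes of 0.060 in ABX 5-FU against ABX and -0.095 in Ctrl 5-FU against Ctrl. Fbp1, which runs gluconeogenesis against phosphofructokinase, fell in ABX 5-FU against ABX (log2 change -0.45 ± 0.11 SE, adjusted p = 0.0118) and in Ctrl 5-FU against Ctrl (-0.46 ± 0.11, adjusted p = 0.0156). However, Fbp1 reached 1 RPKM only in the ABX libraries and Ctrl 2, and lay at 0.19 to 0.77 RPKM after 5-FU. It passed the filter only through libraries without 5-FU, which favours a fall. Pck2, the mitochondrial phosphoenolpyruvate carboxykinase, rose in ABX 5-FU against ABX (0.33 ± 0.082, adjusted p = 0.012), and the glycogen phosphorylase Pygl fell in Ctrl 5-FU against Ctrl (-0.23 ± 0.061, adjusted p = 0.0233).

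Among 7 tested pentose phosphate genes, transketolase, Tkt, fell in ABX 5-FU against ABX (log2 change -0.40 ± 0.071 SE, adjusted p = 0.00215) and in Ctrl 5-FU against Ctrl (-0.28 ± 0.071, adjusted p = 0.018). H6pd, the enzyme of that pathway in the endoplasmic reticulum, fell in ABX 5-FU against ABX (-0.33 ± 0.099, adjusted p = 0.0271). The median changes of this list were -0.013 with antibiotics and -0.048 without. Among 7 genes of pyruvate entry and control of the complex, the mitochondrial pyruvate carrier subunit Mpc2 fell in ABX 5-FU against ABX (-0.23 ± 0.075, adjusted p = 0.0393), and Dld, the E3 subunit, rose in Ctrl 5-FU against Ctrl (0.25 ± 0.081, adjusted p = 0.0497). The median changes there were -0.098 with antibiotics and -0.022 without.

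Of 11 tested genes of the HIF pathway, 5 were called in ABX 5-FU against ABX (45.5%, against 30.2% of all genes). In Ctrl 5-FU against Ctrl, 2 were called (18.2%, against 21.6% of all genes). The median changes were 0.30 and 0.16, beside -0.014 and 0.0045 over all genes. This list holds both targets and inhibitors of Hif1a, so its median gives no direction for the pathway. Bnip3l, a mitophagy receptor, rose in both (log2 change 0.55 ± 0.066 SE, adjusted p = 0.000354 with antibiotics, and 0.40 ± 0.066, adjusted p = 0.00286 without). Car9, a carbonic anhydrase known as a target of Hif1a, fell in both (-0.34 ± 0.095, adjusted p = 0.0221 with antibiotics, and -0.34 ± 0.095, adjusted p = 0.0262 without). Arnt, the partner of Hif1a, rose by 0.36 ± 0.076 in ABX 5-FU against ABX (adjusted p = 0.00559). There, Hif1an, which inhibits Hif1a, and Vhl, which marks it for degradation, rose by 0.30 ± 0.084 (adjusted p = 0.0211) and 0.30 ± 0.096 (adjusted p = 0.0355). No gene of these lists was called in the other comparisons.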

How the data were processed

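RNA of 2000 sorted cells per library was made into SMART-Seq v4 and Nextera XT libraries, per the labels' protocols. The authors deposited RPKM values of 46986 features for the 12 libraries, with 0.0001 in place of 0. Per the submitters' processing notes, STAR 2.5.3a, Partek and the mm10 build were used. How reads were counted, with which strand setting and gene models, is not stated in those notes or the labels. Total reads are not stated. Steps between low RPKM values gave estimates of 27.4 to 53.95 M reads, but only 50.5% to 55.5% of low values were within 2% of whole reads, so no count test was run.

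Genes reaching 1 RPKM in 3 or more libraries (8553) were fitted as log2(RPKM + 1) in limma 3.58.1 (R 4.3.3) with 4 group means, an intensity trend (degrees of freedom 8 residual and 3.34 prior). Tests were two-sided, and p-values were adjusted by Benjamini-Hochberg per comparison, at a threshold of 0.05. The comparisons were 5-FU against none with and without antibiotics, antibiotics against none with and without 5-FU, and the interaction. On data simulated for Ctrl 5-FU against Ctrl over 8553 genes, 90 of 100 genes changed by 1 log2 unit and 64 of 100 changed by 0.5 units were called, with 15 of 8353 unchanged genes. Fewer genes changed there than the 21.6% called in that comparison, and noise was drawn independently for each gene. These rates therefore need not hold for the deposited data. Genes shown in every library are those called in any comparison, the most abundant measured gene of each step and Hif1a. Pdk1, Pdk3, Slc16a3 and Eno2 were also shown so, chosen after their values were seen. From the neighbouring pathways, up to 4 called genes per list with the smallest p are named, and Vhl was added after its values were seen. The members and lists were chosen with earlier results of these data known. Alternatives changed the pseudocount, filter, scaling, variance model, libraries, treatment of copies and, as a block, the i7 index. Copies were found with BLAST+ 2.17.0 among GENCODE M21 transcripts. Python 3.11.15 drew the figures.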

Additional observations from a re-analysis of the deposited data

Results flagged for a closer look

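For Pdk3, all ABX 5-FU libraries lay above all ABX libraries, and all Ctrl 5-FU libraries lay below all Ctrl libraries. Neither change passed the test (log2 change 0.16, adjusted p = 0.0948, and -0.14, adjusted p = 0.16, in limma). Groups lay apart in those directions for 23.1% of all genes in ABX 5-FU against ABX and for 18.3% in Ctrl 5-FU against Ctrl. The 5-FU effect with antibiotics minus that without was 0.3 on the log2 scale, with an adjusted p of 0.505 in limma over all genes, so the difference did not pass the test.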

How the results depend on the processing

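The count of called genes among the 28 was 6 in Ctrl 5-FU against Ctrl, and 3 when only those groups were fitted. Leaving out libraries in turn gave 3 to 8 there, 4 to 7 in ABX 5-FU against ABX (6 in all libraries), 0 to 1 in ABX 5-FU against Ctrl 5-FU, and 0 in ABX against Ctrl and in the interaction. The call in ABX 5-FU against Ctrl 5-FU was Pdk1, without Ctrl 5-FU 3. For the 35 pathway genes tested, Ctrl 5-FU against Ctrl called 6 genes, with 2 at a mean of at least 5 RPKM, 10 after rescaling to TPM, 1 with only those groups fitted, and 2 to 6 without each library in turn. ABX 5-FU against ABX called 10 pathway genes, with 6 when no filter was used, 5 at a mean of at least 5 RPKM, and 5 to 11 without each library in turn. Of 12 calls among named genes, 6 held in every alternative (Tpi1 in both 5-FU comparisons, Gapdh and Ldhb in Ctrl 5-FU against Ctrl, Pgam1 and Pdk2 in ABX 5-FU against ABX), and 0 changed sign. Of the 78 comparisons of named genes that were not called, 9 were called in some alternative and 34 changed sign in some alternative. The causes were not tested. Leaving out Ctrl 5-FU 1 and ABX 5-FU 1 together was chosen after seeing the data. The labels give no replicate numbers that groups share, but libraries with and without antibiotics share i7 indexes. With the i7 index as a block, 0 of the 28 genes were called in ABX against Ctrl, in ABX 5-FU against Ctrl 5-FU and in the interaction. Over all 8553 genes that block gave 20 calls in ABX against Ctrl (6 without it), 22 in ABX 5-FU against Ctrl 5-FU (10 without it) and 0 in the interaction (1 without it). With 3 libraries a group and unknown counting rules, small changes and genes near 1 RPKM are not resolved.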
